A study of Rattus norvegicus with 12 samples.

Results

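The miR-15/16 family is a group of microRNAs (miRNAs) that share a seed, the stretch of bases 2 to 8 with which a miRNA pairs with its target mRNAs. It was followed here through 7 mature strands: rno-miR-15b-5p, rno-miR-15b-3p, rno-miR-16-5p, rno-miR-195-5p, rno-miR-497-5p, rno-miR-322-5p and rno-miR-322-3p, written below without the prefix rno for rat. They were chosen by name, as strands of miR-15b, miR-16, miR-195, miR-497 or miR-322 with an arm suffix. That rule fits 10 of the 685 miRNA names in the tables, and the 3 others, miR-16-3p, miR-195-3p and miR-497-3p, are given as the other arms of member hairpins. Small RNA was counted in 12 libraries of primary cortical neurons of Sprague Dawley rats at embryonic day 17, grown as cultures. A lentivirus was added at 10 days in vitro and the cells were lysed at 14 days. It delivered an shRNA, a short hairpin RNA used for knockdown, that was non-targeting (shNTC), directed at Stau2 (shStau2) or directed at Pum2 (shPum2), with 4 libraries in each of the 3 groups. Stau2 encodes the double-stranded RNA-binding protein Staufen2, and Pum2 the single-stranded RNA-binding protein Pumilio 2. All groups, the control included, carried a virus and an shRNA. How many hairpin sequences were used per target is not stated in the labels, and the knockdown itself was not analysed here, since the tables hold small RNAs alone.

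As background, miRNAs of this family are known to repress cyclins, other drivers of the cell cycle and the survival protein Bcl2, and they are linked to exit from proliferation. Each miRNA hairpin can release a strand from its 5′ arm and a strand from its 3′ arm, of which usually 1 is loaded into Argonaute as the guide while the partner strand is mostly lost. In this family the 5′ strands are the guides. Several members are made in pairs from a shared primary transcript, so that transcription sets both while later processing and decay can separate them.

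The mature sequences are shown because the shared seed is what makes these strands a family and the remaining bases are what separates them. They are from RefSeq (GRCr8), 5′ to 3′, with bases 2 to 8 in capitals, and all 7 members had an entry.
miR-16-5p: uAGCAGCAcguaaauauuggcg
miR-195-5p: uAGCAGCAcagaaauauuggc
miR-15b-5p: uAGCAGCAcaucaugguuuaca
miR-497-5p: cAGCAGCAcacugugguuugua
miR-322-5p: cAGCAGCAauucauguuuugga
miR-503-5p: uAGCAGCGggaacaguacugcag
miR-15b-3p: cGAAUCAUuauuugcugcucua
miR-322-3p: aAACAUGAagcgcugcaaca

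The 5 guide strands had the same bases 2 to 8, and among the 570 of 628 tested names with a RefSeq sequence no other name had them. The relative miR-15a-5p was among the names without a sequence, so its seed was not compared. With bases 2 to 7 alone the group grew to 6, by miR-503-5p, which is encoded next to miR-322. The strands of miR-103 and miR-107, counted by the authors under a single name, carry the same 6 bases shifted by 1, at bases 1 to 6. The passenger strands miR-15b-3p and miR-322-3p have seeds of their own. Compared base by base from the 5′ end, miR-16-5p and miR-195-5p were the closest pair, with 19 of 21 bases identical. Counted from 1 at the 5′ end of miR-16-5p, the 2 differences to miR-195-5p were G10A and U11G. At the other end, miR-16-5p shared 11 of 22 bases with miR-497-5p, and miR-195-5p shared 11 of 21 with miR-322-5p. The strand miR-15b-5p shared 14 of 22 bases with miR-16-5p and 16 of 22 with both miR-497-5p and miR-322-5p. How the authors' counting assigned reads between near-identical strands is not stated in the labels, so the separate values of miR-16-5p and miR-195-5p are uncertain to that extent.

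The members come from 3 places in the RefSeq annotation of GRCr8. Mir15b and Mir16 lie side by side on the plus strand of chromosome 2 within Smc4, the gene of a condensin subunit. In other mammals a further gene makes the same mature miR-16-5p, so its count may hold more than this locus. Mir497 and Mir195 neighbour each other on the plus strand of chromosome 10. Mir322 lies on the minus strand of chromosome X, beside Mir503, Mir351 and Mir542, within the locus LOC102550366. Its hairpin is shown because both of its arms are members, with the 5′ strand and then the 3′ strand in capitals.
Mir322: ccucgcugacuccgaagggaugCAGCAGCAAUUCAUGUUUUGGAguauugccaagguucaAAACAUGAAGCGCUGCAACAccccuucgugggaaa

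Totals lay between 3836349 and 5415763 counts per library. The level that 3 counts stand for, taken as the floor, was between 0.588 and 0.763 CPM (counts scaled to a common library size), and every member had at least 90 counts in every library. CPM values are scaled by the trimmed mean of M-values (TMM) and are shares of a library, so in these mixed cultures fewer cells of a type and less RNA per cell cannot be told apart. The 8 listed miRNAs known from neurons were all present, with summed levels of 279700 to 345200 CPM over the 12 libraries. A large part of that sum was miR-9a-5p, with a mean of 190400 CPM. Presence alone does not check the label of cortical neurons, since the listed muscle and oligodendrocyte miRNAs were present too. The 6 miRNAs listed for astrocytes were miR-21-5p, miR-21-3p, miR-23a-3p, miR-27a-3p, miR-143-3p and miR-449a-5p, and none was absent. The other arm of miR-143, miR-143-5p, is in the list for vessels and mesenchyme, so this list is not specific to astrocytes. The sum of the 6 ran from 5100 to 8936 CPM in the control group. It ran from 3195 to 5257 under shStau2 and from 3985 to 6518 under shPum2. The erythrocyte miRNA miR-451-5p, of interest because miR-16-5p is abundant in red blood cells, had between 0 and 17 counts, while miR-486, also known from red blood cells, had 1083 to 1777 counts in every library. The part of red blood cell RNA in the level of miR-16-5p was not tested.

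Over all 12 libraries miR-16-5p stood far above its relatives, with a mean of 33610 CPM, rank 6 of 628 tested names. It made up 95.5 to 97.4% of the summed CPM of the 5 guides, which together made up between 2.97 and 4.10% of all miRNA counts per library. Next came miR-195-5p at 492 CPM, 68.2 times lower and below miR-16-5p in all 12 libraries. The following guides were miR-322-5p at 318 CPM, miR-15b-5p at 261 CPM and miR-497-5p at 215 CPM. Of these, miR-195-5p was above miR-322-5p in 12 of 12 libraries, although their ranges overlapped between libraries. Neither miR-322-5p over miR-15b-5p nor miR-15b-5p over miR-497-5p was an order that held throughout, with 9 of 12 libraries each. The passenger strands were scarce, miR-15b-3p at 32.1 CPM and miR-322-3p at 26.3 CPM. Ligation and amplification in library preparation differ between sequences, so levels of different miRNAs compare only roughly.

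**Figure D1:**
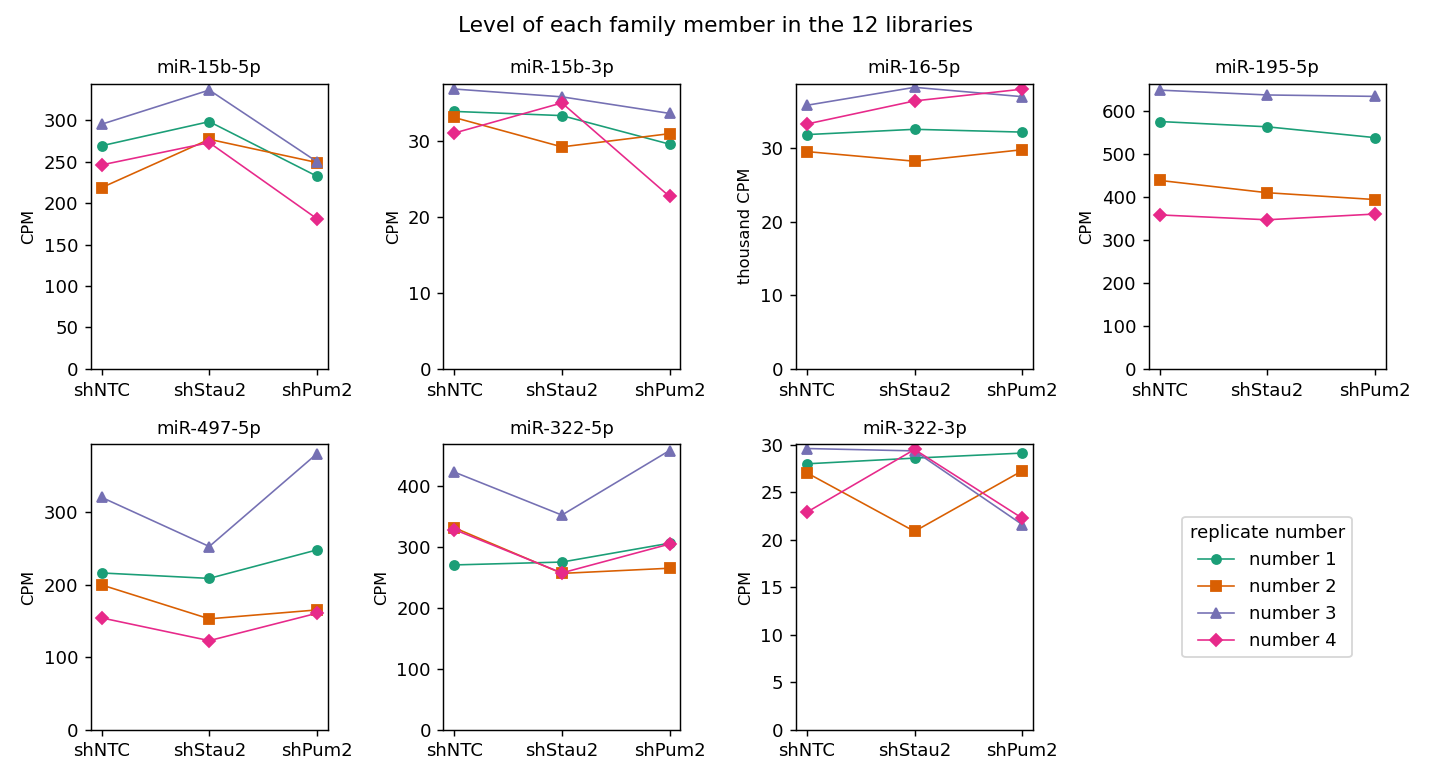
Level of each of the 7 members in every library, in TMM-scaled CPM (on a larger scale for miR-16-5p, as its axis states), by shRNA group on the x axis. Lines join libraries of the same replicate number. The 4 lines of miR-195-5p are almost flat and never cross, while those of miR-15b-5p are highest at shStau2.

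The most abundant member, miR-16-5p, is the strand most often used to represent the family. In shNTC it stood at 31870, 29560, 35860 and 33310 CPM in replicates 1 to 4. In shStau2 the values were 32590, 28250, 38300 and 36450 CPM, and in shPum2 32210, 29810, 37030 and 38050 CPM. The groups overlapped over most of their range, with means of 32650 ± 2637, 33900 ± 4453 and 34280 ± 3917 CPM (SD, n = 4 for each). In every group the library numbered 2 was the lowest. Its counting error was at most 0.288%, well under the spread between libraries of 8.08 to 13.1% of the mean, so depth was not what limited this strand.

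The miR-15b hairpin contributes a guide and a passenger strand, and it is the neighbour of miR-16 on chromosome 2. For miR-15b-5p the shNTC libraries gave 269, 219, 295 and 246 CPM. Those of shStau2 gave 298, 277, 336 and 273 CPM, and those of shPum2 gave 232, 249, 250.0 and 181 CPM. The 4 shStau2 libraries were the highest of their replicate number in each case and did not overlap with shPum2, whereas shNTC overlapped with both. Group means were 257 ± 32.6, 296 ± 29.0 and 228 ± 32.4 CPM (SD, n = 4).

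Its passenger strand miR-15b-3p stood at 33.9, 33.1, 36.9 and 31.1 CPM in shNTC. It stood at 33.4, 29.2, 35.8 and 35.0 CPM in shStau2, and at 29.6, 31.0, 33.6 and 22.7 CPM in shPum2. The shPum2 library numbered 4 was the lowest of all 12, as it was for miR-15b-5p, and all groups overlapped. With 105 to 188 counts, its counting error reached 9.76%, against a spread of 7.13% of the mean within shNTC, 8.81% within shStau2 and 16% within shPum2.

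Of the pair on chromosome 10, miR-195-5p is known from heart and muscle as a brake on proliferation. Its levels were 576, 439, 649 and 359 CPM in shNTC replicates 1 to 4. In shStau2 they were 564, 410, 638 and 347 CPM, and in shPum2 539, 394, 635 and 361 CPM. The order of the replicate numbers was the same in each group, and the ranges of the 4 numbers did not overlap: 635 to 649 CPM for number 3, 539 to 576 for number 1, 394 to 439 for number 2 and 347 to 361 for number 4. Across groups the means were nearly level, at 506 ± 131, 490 ± 134 and 482 ± 128 CPM (SD, n = 4).

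Its partner miR-497-5p, studied in neurons mainly for its effect on Bcl2, had 216, 200, 320 and 154 CPM in shNTC. It had 209, 153, 253 and 123 CPM in shStau2, and 248, 165, 381 and 161 CPM in shPum2. Within each group the order of numbers was again 3, 1, 2, 4, and at every number the shStau2 library was the lowest of the 3. Because the numbers lay so far apart, the groups still overlapped, with means of 223 ± 70.3, 184 ± 57.9 and 239 ± 103 CPM (SD, n = 4).

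From chromosome X, miR-322-5p, the rodent counterpart of human miR-424-5p, had 270.0, 331, 422 and 328 CPM in shNTC. It had 275, 256, 352 and 257 CPM in shStau2, and 306, 265, 458 and 304 CPM in shPum2. The library numbered 3 was the highest in all groups, and the groups overlapped, with means of 338 ± 62.9, 285 ± 45.4 and 333 ± 85.2 CPM (SD, n = 4). The passenger strand miR-322-3p showed no such order. It had 28.0, 27.0, 29.6 and 22.9 CPM in shNTC, 28.6, 20.9, 29.4 and 29.5 CPM in shStau2, and 29.1, 27.2, 21.6 and 22.3 CPM in shPum2, with a counting error of up to 10.5%.

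The spread of the members divided in unlike ways between replicate number and shRNA group. The shares given here are of the sum of squares of log2 CPM over the 12 libraries, where the numbers have 3 and the groups 2 of 11 degrees of freedom. For miR-195-5p 98.6% lay between replicate numbers, the largest share of all 628 tested names, and 0.735% between groups. The share between numbers was 88.8% for miR-16-5p (rank 17), 84.9% for miR-497-5p (rank 34) and 71.1% for miR-322-5p (rank 113), against a median of 44.3% over all tested names. For miR-15b-5p the share between groups, 49.2%, was larger than that between numbers, 32.3%. The spread of miR-15b-3p divided about evenly, with 32.8% between numbers, 31.0% between groups and 36.2% remaining. Over all tested names the median share between groups was 16.5%, and miR-15b-5p ranked 57 by it. For miR-322-3p 71.9% belonged to neither. The relative miR-15a-5p had 81.8% between numbers.

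**Figure D2:**
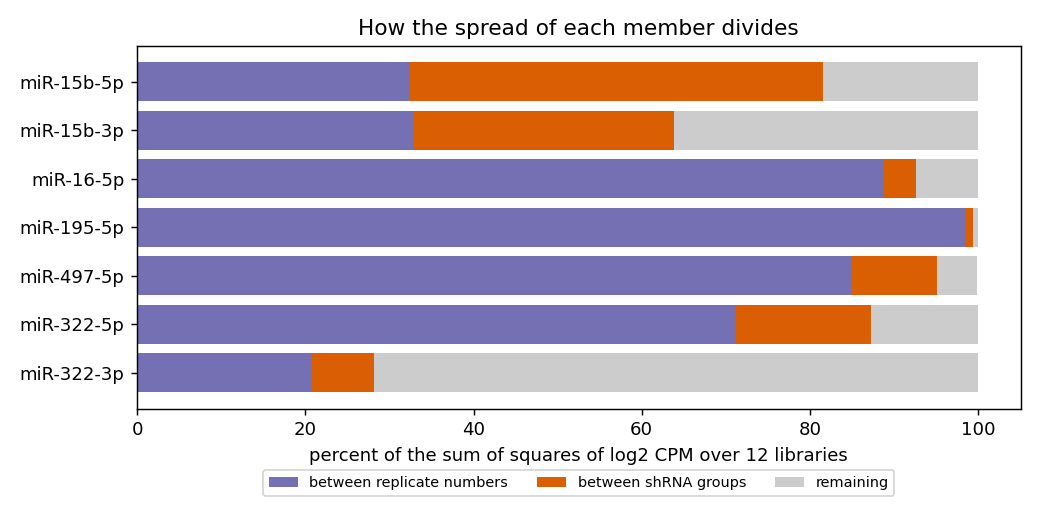
Division of the spread of each member, as percent of the sum of squares of log2 CPM over the 12 libraries (x axis), into a share between replicate numbers, a share between the 3 shRNA groups and the remainder. The bar of miR-195-5p is 98.6% replicate number, and that of miR-15b-5p has the widest group share, 49.2%.

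What the replicate numbers stand for (separate cultures, dissections or days) is not stated in the labels. The miRNAs known from vessels and mesenchyme summed to 534 to 666 CPM at number 3, where miR-195-5p and miR-497-5p were highest, and to 693 to 822 CPM at number 4, where they were lowest. For muscle miRNAs the sums were 228 to 331 CPM at number 3 and 157 to 233 CPM at number 4. Neuron miRNAs summed to 329600 to 345200 CPM at number 3 and to 292500 to 309800 CPM at number 4. Sums of the blood cell and microglia miRNAs were 477.9 to 502 and 502.9 to 584.8 CPM. Those of the astrocyte list were 4283 to 5954 and 3195 to 5100 CPM. The oligodendrocyte miRNAs had 280.3 to 408.3 and 281.9 to 341.3 CPM. The part of these lists in the levels of the pair was not tested.

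The comparison of shStau2 with shNTC asked whether depletion of Stau2 changed the family. None of the 7 members passed edgeR's quasi-likelihood test at an adjusted p of 0.05 (Benjamini-Hochberg over 628 names), where 0.318% of all tested names passed. Without a block 0 of the 7 had an unadjusted p under 0.05 by edgeR, where 71 of the 628 tested names did. DESeq2 without the block called 0 members, with 17 of all tested names called. The median log2 fold change was -0.017 for the members and 0.003 for all tested names. The libraries of the same number deviated together, so the fit with replicate number as a block was run beside it: it called 0 of the 7 as well, with 6.21% of all tested names called (2.39% higher and 3.82% lower in shStau2). In the blocked fit 3 of the 7, miR-15b-5p, miR-497-5p and miR-322-5p, had an unadjusted p under 0.05 by edgeR, as did 141 of the 628 tested names.

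Within that comparison the guides differed in size and sign. For miR-15b-5p the log2 fold change was 0.20 (SE 0.13, adjusted p = 0.587), with shStau2 higher in 4 of 4 pairs of the same number and an interval at 95% from -0.066 to 0.47. With the block the estimate was again 0.20 and the interval ran from 0.009 to 0.40 (adjusted p = 0.195). For miR-16-5p it was 0.054, with an interval from -0.16 to 0.27. The values for miR-497-5p and miR-322-5p pointed downward at -0.27 (SE 0.32, adjusted p = 0.824) and -0.25 (SE 0.17, adjusted p = 0.632). With the block their estimates were nearly the same and their intervals narrower, from -0.48 to -0.074 for miR-497-5p (adjusted p = 0.108) and from -0.43 to -0.051 for miR-322-5p (adjusted p = 0.133). In pairs of the same number miR-497-5p was lower in 4 of 4 and miR-322-5p in 3 of 4. The level of miR-195-5p differed by -0.046, lower in 4 of 4 pairs, with a block interval from -0.20 to 0.10. The passenger strands stood at -0.017 for miR-15b-3p and 0.008 for miR-322-3p. Single libraries moved the unblocked values: without shNTC replicate 3 that of miR-497-5p was -0.049 and that of miR-322-5p -0.12, and without shStau2 replicate 3 they were -0.46 and -0.36.

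The listed miRNAs of cell types were read in the same comparison, where 3.82% of all tested names were called lower with the block. With the block 4 of the 6 miRNAs listed for astrocytes fell by edgeR in shStau2 against shNTC. The median log2 fold change of the 6 was -0.50, with 1 of them above 0. Of the blood cell and microglia miRNAs 1 of 6 tested fell, with sums of 502 to 748 CPM in shNTC and 498 to 588 in shStau2. These 6 had a median log2 fold change of -0.189, with 1 of them above 0. Of the vessel and mesenchyme miRNAs 1 of 9 tested fell, with sums of 653 to 782 CPM in shNTC and 534 to 693 in shStau2. These 9 divided into 4 above 0 and 5 below, with a median of -0.047. Of the 8 neuron miRNAs 0 were called, with 4 above 0, 4 below and a median of -0.009. The part of these lists in the values of the family was not tested.

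The shRNA against another RNA-binding protein, Pum2, was set against shNTC next, in a comparison that shares the shNTC libraries with the comparison before. None of the 7 members passed in edgeR, unblocked or blocked, where 0% and 0.159% of all tested names passed. DESeq2 called 0 members, with 0 of all tested names called without the block and 2 with it. No member had an unadjusted p under 0.05 in either edgeR fit, where 9 of the 628 tested names did unblocked and 46 blocked. No member had groups that did not overlap, where 1.11% of all tested names did. The median log2 fold change was -0.069 for the members and 0.002 for all tested names. Both strands of miR-15b stood lower, with a log2 fold change of -0.17 for miR-15b-5p, lower in 3 of 4 pairs, and of -0.21 for miR-15b-3p, lower in 4 of 4 (SE 0.13 and adjusted p = 0.982 for each). Their neighbour miR-16-5p stood at 0.07 and was higher in 4 of 4 pairs. Values for the rest ran from -0.11 for miR-322-3p to 0.10 for miR-497-5p.

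The comparison of shStau2 with shPum2 set both active shRNAs against each other. Here miR-15b-5p and miR-497-5p had the largest estimates of the members, of about equal size and opposite sign (0.38 and -0.37). The level of miR-15b-5p was 1.30 times as high in shStau2 as in shPum2, a log2 fold change of 0.38 (SE 0.13) with an interval from 0.11 to 0.65. Without the block its unadjusted p was 0.00936, but it did not pass over all names (edgeR adjusted p = 0.42), and 0 of the 7 members did, with 0.478% of all tested names called. DESeq2 without the block called 0 members too, with 7 of all tested names called. With the replicate block the estimate was again 0.38 (SE 0.09, interval 0.18 to 0.57), and miR-15b-5p rose by edgeR's test (adjusted p = 0.0292). It was the only member called of 7, with 3.98% of all tested names called (1.59% higher and 2.39% lower in shStau2). The difference was 0.36, 0.15, 0.43 and 0.59 on the log2 scale for numbers 1 to 4, all of them above 0. The groups did not overlap, as for 4.94% of all tested names. Without the libraries numbered 1, 3 or 4 the blocked call ended (adjusted p = 0.134, 0.174 and 0.186), while without number 2 the adjusted p was 0.00421.

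Beside that call, the sum of the 6 miRNAs listed for astrocytes was 3195 to 5257 CPM in shStau2 and 3985 to 6518 in shPum2. With the block 0 of the 6 passed by edgeR. An unadjusted p under 0.05 was found for 5 of them and for 124 of the 628 tested names. Of the blood cell and microglia miRNAs 2 of 6 tested fell with the block, where 2.39% of all tested names were called lower. Their sums were 498 to 588 CPM in shStau2 and 478 to 633 in shPum2. The median log2 fold change of the 6 was -0.398, with 2 of them above 0. Of the muscle miRNAs 1 of 3 fell, with sums of 162.4 to 228.3 CPM in shStau2 and 228.7 to 331 in shPum2, which nearly touched. The muscle list had a median log2 fold change of -0.04 with the block. Most of its counts were of miR-206-3p, with 504 to 1440 per library. Their part in the miR-15b-5p difference was not tested. Both comparisons with shNTC leave miR-15b-5p in between, with shNTC below shStau2 and, at 3 of 4 numbers, above shPum2.

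The partner strand miR-15b-3p had a log2 fold change of 0.19 in shStau2 against shPum2 (SE 0.13, adjusted p = 0.66), higher in 3 of 4 pairs. For miR-16-5p, from the same stretch of Smc4, the value was -0.016, with a block interval from -0.13 to 0.10. Of the chromosome 10 pair, miR-195-5p stood at 0.023 (adjusted p = 0.989) and miR-497-5p at -0.37 (SE 0.32, adjusted p = 0.68), lower in 4 of 4 pairs. With the block miR-497-5p was at -0.34 (SE 0.10, interval -0.54 to -0.14) and missed the threshold closely (edgeR adjusted p = 0.051). DESeq2 with the block called it (adjusted p = 0.0254), with 31 of all tested names called. For miR-322-5p the value was -0.23, lower in 4 of 4 pairs, and -0.21 with the block (adjusted p = 0.203). The passenger strand miR-322-3p stood at 0.11. Without shPum2 replicate 3 the unblocked value of miR-497-5p was -0.055 and that of miR-322-5p -0.034, and without shStau2 replicate 3 they were -0.57 and -0.35.

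**Figure D3:**
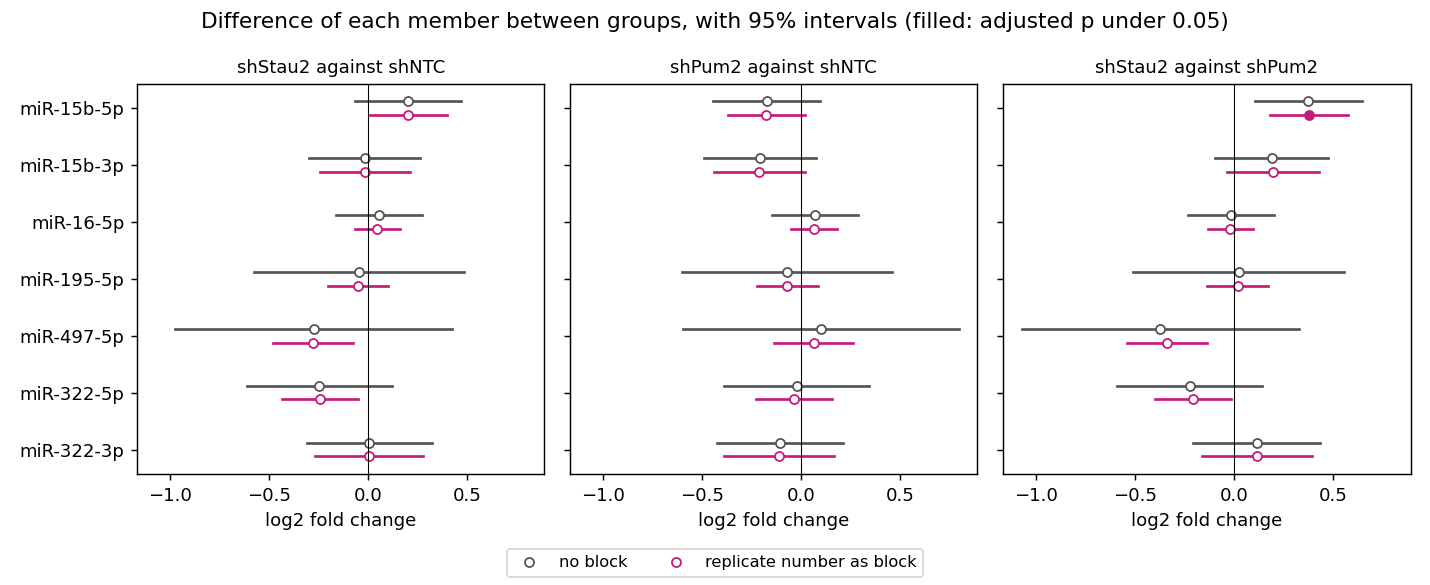
Log2 fold change of each member in the 3 comparisons (x axis), without a block and with replicate number as a block, with 95% intervals. A filled point has an adjusted p under 0.05 over all tested names, which holds for miR-15b-5p in shStau2 against shPum2 with the block; the block narrows the intervals of miR-195-5p and miR-497-5p most.

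Ratios of strands within a library do not depend on scaling, so they show whether the counts of strands from a shared or a neighbouring hairpin moved apart. They were compared by exact permutation over the libraries, two-sided, for 4 ratios and 3 comparisons, 12 tests in all, in which the smallest possible p was 0.0286. None had an adjusted p under 0.05, which this design could hardly reach: a single ratio at the smallest p has an adjusted p of 0.343, and 7 of the 12 would have to be there to pass. The count of miR-195-5p was 1.67 to 2.83 times that of miR-497-5p. Its log2 ratio averaged 1.20 ± 0.17 under shNTC, 1.42 ± 0.067 under shStau2 and 1.07 ± 0.23 under shPum2 (SD, n = 4). Between shStau2 and shPum2 the ratios did not overlap (difference 0.35, exact permutation p = 0.0286, adjusted p = 0.229), with 1.43, 1.42, 1.34 and 1.499 against 1.12, 1.25, 0.74 and 1.17. Against shNTC the difference was 0.23 (exact permutation p = 0.0571, adjusted p = 0.229). These tests do not use the pairing. Between libraries of the same number, shStau2 exceeded shPum2 by 0.32, 0.17, 0.60 and 0.33, and shNTC by 0.020, 0.29, 0.32 and 0.28, higher in 4 of 4 pairs in both (exact sign-flip p = 0.125, the smallest that 4 pairs can give, adjusted p = 0.375).

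The log2 ratio of miR-15b-5p to miR-16-5p, which are neighbours on chromosome 2, averaged -6.99 ± 0.10 under shNTC, -6.83 ± 0.17 under shStau2 and -7.23 ± 0.34 under shPum2 (SD, n = 4). Because the count of miR-16-5p may hold more than this locus, the ratio may not describe a shared transcript alone. The shStau2 value was higher than that of shPum2 by 0.40 (exact permutation p = 0.0571, adjusted p = 0.229). By replicate number the difference was 0.34, 0.23, 0.38 and 0.65, and against shNTC it was 0.12, 0.41, 0.093 and 0.019, again higher in 4 of 4 pairs in both (exact sign-flip p = 0.125, adjusted p = 0.375). In counts, miR-15b-5p reached 0.00476 to 0.00981 of miR-16-5p, the lowest in shPum2 replicate 4. The arms of miR-15b stood at a ratio of 6.59 to 9.44 in favour of the guide. In shStau2 the log2 arm ratio was 3.15 ± 0.13, against 2.92 ± 0.13 in shNTC and 2.96 ± 0.051 in shPum2 (SD, n = 4; exact permutation p = 0.114 for both, adjusted p = 0.274). The arms of miR-322 stood at 8.68 to 21.1, and the highest ratio belonged to shPum2 replicate 3, the library with the most miR-322-5p. Its log2 ratio differed by -0.24 between shStau2 and shNTC (exact permutation p = 0.2, adjusted p = 0.3).

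**Figure D4:**
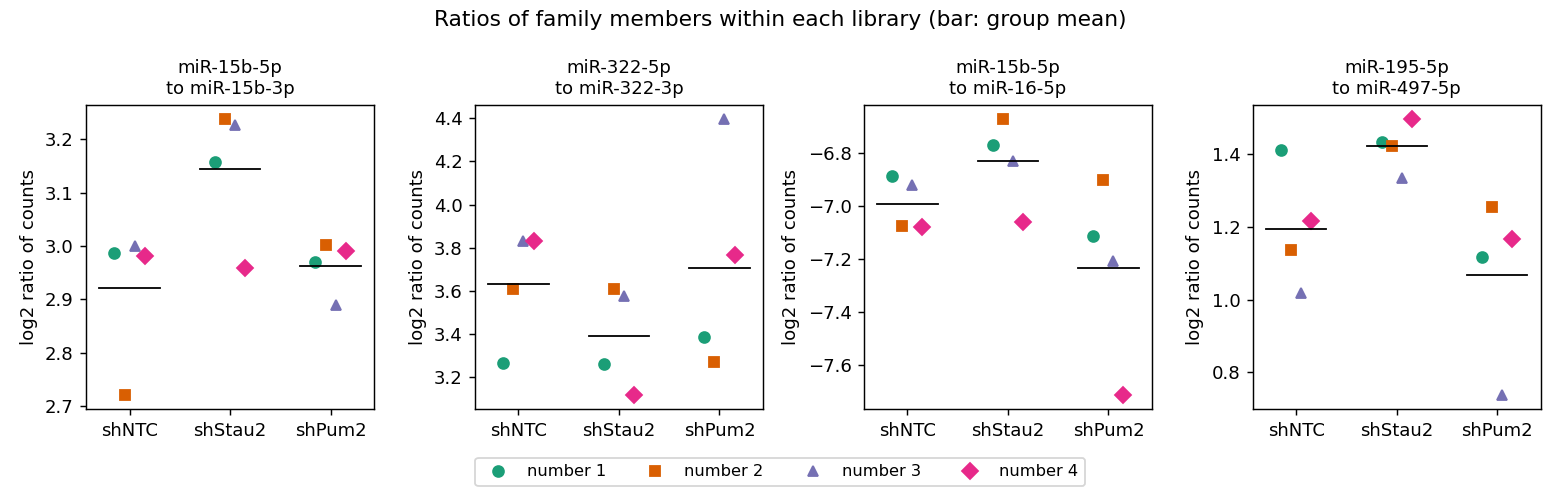
Log2 ratio of counts of 2 members within each library (y axis), by shRNA group, with the group mean as a bar and replicate numbers by symbol. For miR-195-5p to miR-497-5p all 4 shStau2 libraries, at 1.34 to 1.499, lie above all shPum2 libraries, at 0.74 to 1.25.

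The other arms of the member hairpins were also tested, and 0 of the 3 passed in any of the 3 comparisons, with or without the block. Without the block none of them had an unadjusted p under 0.05. With it 1 did, the scarce miR-497-3p in shStau2 against shNTC, which rests on listed values of 0. In that fit 141 of the 628 tested names did. The strand miR-16-3p, at 60.5 to 93.0 CPM, followed its guide miR-16-5p most closely of the 447 names compared, those with a mean of at least 10 CPM (Pearson r = 0.92 over the 12 libraries). Its log2 fold change was 0.16 in shPum2 against shNTC, higher in 4 of 4 pairs. The strand miR-195-3p lay between 11.7 and 18.2 CPM. The strand miR-497-3p had 0 to 17 counts and was listed at 0 in the libraries numbered 4 of all groups and in shStau2 replicate 3. In all libraries together, 518 values were 0 but 12 were 1 and 30 were 2, so a listed 0 may not mean the absence of reads, and no fold is given.

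The relative miR-15a-5p, which the rule for members did not take in, was about as abundant as miR-195-5p. It is not part of the sum of the 5 guides. Levels averaged 514 ± 80.5 CPM under shNTC, 499 ± 82.0 under shStau2 and 519 ± 132 under shPum2 (SD, n = 4), and it did not pass in any comparison. In shStau2 against shPum2 its log2 fold change was -0.057 (edgeR adjusted p = 0.939). The combined name of miR-103-3p and miR-107-3p, with the shifted seed bases, was second to miR-16-5p in abundance among these strands at 12570 CPM. It had log2 fold changes of 0.055, -0.06 and 0.12 in the 3 comparisons, none of them past the threshold.

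Next to miR-322 on chromosome X lie 9 further names, of miR-503, miR-351, miR-542 and miR-450. None of the 9 passed in edgeR in any comparison, blocked or unblocked. In shStau2 against shNTC 2 of them had an unadjusted p under 0.05 in each fit. So did 71 of the 628 tested names unblocked and 141 blocked. In shPum2 against shNTC 0 of the 9 did in either fit, where 9 of the 628 did unblocked and 46 blocked. In shStau2 against shPum2 0 did unblocked and 1 blocked, where 59 and 124 of the 628 did. The strand miR-503-5p, which shares bases 2 to 7 with the family, averaged 39.2 ± 10.0 CPM under shNTC, 37.5 ± 8.83 under shStau2 and 40.2 ± 2.79 under shPum2 (SD, n = 4). Its partner miR-503-3p had 30.35, 24.66, 31.75 and 28.25 CPM in shNTC and 36.98, 38.27, 33.45 and 33.34 CPM in shStau2. These groups did not overlap, as for 9.55% of all tested names, and the log2 fold change was 0.30 (SE 0.12, edgeR adjusted p = 0.298). The strand miR-542-3p went from 67.9 ± 17.7 CPM in shNTC to 47.3 ± 7.34 in shStau2 (SD, n = 4), lower in 4 of 4 pairs, which is -0.52 on the log2 scale (SE 0.19, edgeR adjusted p = 0.283 unblocked and 0.0606 blocked). Highest among the neighbours, miR-351-5p, which has the seed of the lin-4 relative miR-125, stood at 206 ± 38.7, 186 ± 18.4 and 191 ± 11.1 CPM in shNTC, shStau2 and shPum2 (SD, n = 4).

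Across the 12 libraries the members followed each other in part. The chromosome 10 partners miR-195-5p and miR-497-5p had a Pearson r of 0.91 on log2 CPM, and miR-15b-5p and miR-15b-3p one of 0.79. By contrast miR-15b-5p and miR-16-5p, although neighbours in Smc4, had 0.066, and miR-322-5p and miR-322-3p had -0.11. The strands most similar in sequence, miR-16-5p and miR-195-5p, had 0.24. These values are descriptions over libraries that share replicate numbers and a common scaling.

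Among 447 other names with a mean of at least 10 CPM, those most like each guide were found by the same measure. For miR-195-5p they were miR-30a-5p (r = 0.94), miR-30a-3p (0.94) and the let-7a-1-3p/7c-2-3p name (0.92). For miR-497-5p they were miR-499-5p (0.91), miR-195-5p (0.91) and miR-30a-5p (0.91). The names nearest to miR-15b-5p were miR-7a-1-3p (0.95), miR-129-3p (0.91) and miR-125b-5p (0.88). Those nearest to miR-16-5p, after miR-16-3p, were miR-30e-3p (0.87) and miR-301a-5p (0.83), and those nearest to miR-322-5p were miR-9a-5p (0.87), miR-9b-3p (0.85) and miR-490-5p (0.85). No member of the family was among the 3 nearest names of miR-15b-5p, miR-16-5p, miR-195-5p or miR-322-5p, apart from the arm miR-16-3p.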

How the data were processed

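Small RNA of 12 rat cortical neuron cultures was sequenced, and the authors deposited whole-number counts per small RNA name, 1 table per library, not normalised. Per the labels' protocols, the library kit adds unique molecular identifiers. The labels do not state whether molecules or reads were counted, nor the aligner and counter (not given in the sources used here). Counting errors and floors therefore describe counting alone. Rnor 6.0 is the build named in the submitters' processing notes. Sequences and gene neighbours are from RefSeq on GRCr8, and none of its coordinates are given.

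All 685 miRNA names entered edgeR 4.0.16 in R 4.3.3 (TMM scaling, filterByExpr by group, robust quasi-likelihood fit of all 12 libraries, two-sided, Benjamini-Hochberg over the 628 names that passed the filter, called at 0.05). The 120 Piwi-interacting RNA names were used in 1 alternative. DESeq2 1.42.0 was an alternative. All 7 members passed the filter. Levels are TMM-scaled CPM, and correlations and shares of spread used log2 CPM with a prior count of 2. Ratios had 0.5 added to each count. The fit without a block was tested on simulated data that held no effect of replicate number. The blocked fit was not tested in this way.

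The members, lists and tests were chosen with earlier results of these data known. Named were all members, the other arms, the X neighbours, relatives by seed, the 3 names most like each guide, and markers. Replicate numbers came from the titles. Deviations from group means correlated across miRNAs at 0.36 to 0.57 for 12 same-number pairs and at -0.41 to 0.14 for 36 other pairs, so the numbers were taken as pairs. P-values measure the spread between these libraries.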

Additional observations from a re-analysis of the deposited data

Results flagged for a closer look

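Of 33 sets of 4 libraries checked (7 members and 4 ratios in 3 groups), 2 held a library far from the other 3 by Dixon's criterion, which flags about 1 set in 20 by chance. The passenger strand miR-322-3p stood at 20.9 CPM in shStau2 replicate 2, where the nearest of the other libraries had 28.6 CPM. The log2 ratio of miR-15b-5p to miR-15b-3p was 2.72 in shNTC replicate 2, where the nearest had 2.98.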

How the results depend on the processing

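The count of called members stayed at 0 in shPum2 against shNTC under every alternative run. In shStau2 against shNTC it was 1 with the replicate block and library totals in place of TMM (miR-497-5p, -0.34, edgeR adjusted p = 0.0484). That setting called 39 of all tested names. In shStau2 against shPum2 it was 1 with the replicate block, 1 with the block and upper-quartile factors, 2 with the block and library totals, 2 with DESeq2 and the block, and 0 to 2 when all libraries of 1 number were left out of the blocked fit. Of all tested names the replicate block called 25 and the block with upper-quartile factors 40. The block with library totals called 26 and DESeq2 with the block 31. The members called were miR-15b-5p and miR-497-5p, and the block changed no other call. For miR-15b-5p the adjusted p in the blocked alternatives ran from 0.00421 to 0.186. The exact sign-flip test over pairs cannot go below 0.125.

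Values near 0 changed sign. In shStau2 against shPum2, miR-16-5p went to 0.016 with upper-quartile factors (0.017 with the block), and miR-195-5p to -0.033 with library totals (-0.04 with the block). In shStau2 against shNTC, library totals gave -0.011 for miR-16-5p (-0.016 with the block) and -0.056 for miR-322-3p with or without the block.

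Leaving out 1 library at a time, or in the blocked fit all libraries of 1 number, gave ranges that crossed 0. In shStau2 against shNTC these were -0.056 to 0.038 for miR-15b-3p, -0.006 to 0.13 for miR-16-5p, -0.20 to 0.093 for miR-195-5p and -0.062 to 0.11 for miR-322-3p. With the block they were -0.082 to 0.034 for miR-15b-3p and -0.11 to 0.11 for miR-322-3p (-0.007 without number 1). In shPum2 against shNTC they were -0.23 to 0.073 for miR-195-5p, -0.22 to 0.33 for miR-497-5p and -0.21 to 0.10 for miR-322-5p, and with the block up to 0.08 for miR-322-5p and 0.012 for miR-322-3p. In shStau2 against shPum2 they were -0.10 to 0.059 for miR-16-5p and -0.13 to 0.18 for miR-195-5p (-0.016 to 0.041 with the block, and -0.013 without number 2). Of the ratios in shPum2 against shNTC, that of the miR-322 arms ranged from -0.16 to 0.22 and that of the miR-15b arms from -0.026 to 0.067. The cause of these changes was not tested. The counting error of miR-322-3p reached 10.5%. Ranges that kept their sign were also wide: -0.46 to -0.049 for miR-497-5p and -0.36 to -0.12 for miR-322-5p in shStau2 against shNTC, and -0.57 to -0.055 and -0.35 to -0.034 in shStau2 against shPum2.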
